A study of Komagataella phaffii with 26 samples.

Results

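A group of 8 genes of *Komagataella phaffii* lost messenger RNA within 15 min of a shift to alkaline medium, stayed low at 30 min in most tests and stood again near their starting level at 60 min. The 8 genes, of 5040 in the table, were *HSP78*, *DAL5*, *PDE1*, *YCR023C*, C4R972, C4QW48, C4QXC6 and PAS_chr1-1_0449. Changes here are differences of group means of log2(RPKM + 1), a stressed group minus time zero of its own course, where RPKM is the reads on a gene divided by its length and by the mapped reads of the library. A gene was taken when its mean over the 26 libraries was at least 5 RPKM, its change was at or below -0.8 at 15 min in all 3 courses, and its change lay between -0.35 and 0.5 at 60 min in all 3 courses. The levels at time zero, 15 min and 60 min therefore chose the genes, as changes within a course. The 30 min libraries entered the rule only through the mean over the 26 libraries, and the changes at 30 min were left unused.

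All libraries came from the wild type strain X-33, a yeast used to produce recombinant proteins, grown at 28 °C in YP with 20 g/L of the carbon source. Cells on glucose shifted to pH 8.0 gave 8 libraries, cells on glycerol shifted to pH 8.2 gave 8 and cells on glycerol shifted to pH 8.0 gave 10. Stressed cells were resuspended in fresh medium with 50 mM TAPS, a buffer, at the alkaline pH and sampled at 15, 30 and 60 min, and time zero was taken at once from cells resuspended at pH 5.5. Each group held 2 biological replicates, except glycerol at pH 8.0 for 15 min, which held 4. No culture kept at pH 5.5 was sampled later, so the effect of pH and that of fresh medium and elapsed time cannot be told apart. By the study's methods the 3 later samples of a course came from the same stressed culture, so times within a course are not independent. The depth was 16.31 to 20.35 M reads a library.

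Alkaline medium weakens the proton gradient across the plasma membrane that yeast uses for the uptake of nutrients, phosphate and metals, and cells answer with wide changes in messenger RNA. The level of a messenger RNA at any time reflects synthesis and decay together, and poly-A sequencing does not separate them. Some messages fall and stay low, some fall and then overshoot, and those described here fell and came back. The roles below are mostly those known from *Saccharomyces cerevisiae* genes of the same name.

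Of the 4966 genes with a mean of at least 5 RPKM, 109 fell by at least 0.8 at 15 min in all 3 courses. At 60 min, 61 of these 109 were still below the window in every course, 12 were above it in every course, and 8 were inside it in every course. Over all 4966 genes, whether or not they fell, 2766 were inside the window in every course. The 8 genes were thus a small share of the early fallers. At 30 min the median change of the 8 was -0.89 on glycerol at pH 8.0, -0.97 on glycerol at pH 8.2 and -0.86 on glucose. For the 61 that stayed low it was -1.4, -1.54 and -1.6 in the same order of courses. For the 12 that overshot it was -0.78, -0.68 and -0.77.

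**Figure D1:**
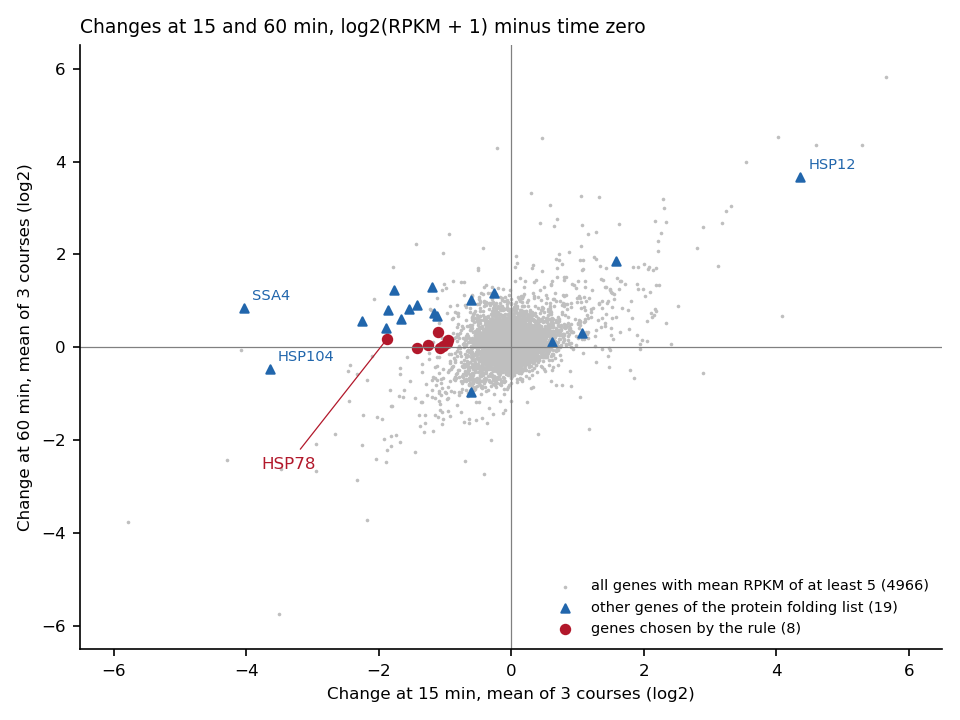
Each point is a gene, with the change at 15 min on the horizontal axis and at 60 min on the vertical axis, both as the mean over the 3 courses of the difference in log2(RPKM + 1) from time zero. The 8 chosen genes (red circles) lie left of 0 and close to the horizontal line, as the rule required, whereas most of the 19 other genes of the protein folding list (blue triangles) lie above that line at 60 min.

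The chosen genes lay on all 4 chromosomes of the GS115 assembly (ASM2700v1), and none of their gene models overlapped another. *HSP78* (PAS_chr2-1_0324, C4R0B7) lay on chromosome 2 from 606751 to 609225 on the minus strand. C4R972 (PAS_chr4_0877) lay on chromosome 4 from 1646885 to 1647802 and *YCR023C* (PAS_chr3_0551, C4R4W4) on chromosome 3 from 1052002 to 1053717, both on the plus strand. The other 5 were on chromosome 1. These were *DAL5* (PAS_chr1-1_0287, C4QWN9) from 1106519 to 1108030 on the plus strand and, on the minus strand, *PDE1* (PAS_chr1-4_0566, C4QYU8) from 2454404 to 2455549, C4QXC6 (PAS_chr1-4_0070) from 1540774 to 1540977, C4QW48 (PAS_chr1-1_0109) from 755309 to 756232 and PAS_chr1-1_0449 from 1388444 to 1389049. Their mean levels spanned 9.40 RPKM for *PDE1* to 168 RPKM for PAS_chr1-1_0449, or percentile 3.45 to 81.6 of all genes. The shortest, C4QXC6, has 204 bases and rested on 40 to 347 reads a library, so its values carry the most counting error. Promoter and protein sequences were not analysed here.

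*HSP78* is described as an oligomeric chaperone of the mitochondrial matrix. In *S. cerevisiae* Hsp78 belongs to the ClpB family, as does the cytosolic Hsp104, and helps to dissolve aggregated matrix proteins. In the glycerol course at pH 8.0 *HSP78* had 46.1 and 88.4 RPKM at time zero, 16.4, 16.1, 14.1 and 12.7 RPKM at 15 min, 20.4 and 24.1 RPKM at 30 min, and 68.5 and 67.1 RPKM at 60 min. In the glycerol course at pH 8.2 it had 63.7 and 45.2 RPKM at time zero, 15.9 and 12.5 at 15 min, 24.4 and 24.8 at 30 min, and 66.5 and 82.1 at 60 min. In the glucose course it had 71.5 and 63.7 RPKM at time zero, 22.3 and 17 at 15 min, 26.8 and 24.2 at 30 min, and 64.4 and 67.6 at 60 min. Every library at 15 and 30 min was below every library of time zero of its course. The time zero libraries of both glycerol courses differed widely from each other, and the gene left the set when either time zero library of the pH 8.0 glycerol course, or replicate 1 of time zero at pH 8.2, was left out. Its changes at 15 min were -2.04 on glycerol at pH 8.0, -1.86 at pH 8.2 and -1.74 on glucose, and their mean, -1.88, was the most negative of the 8.

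C4R972 is described as a dicarboxylate carrier of the mitochondrial inner membrane, a kind of protein that exchanges malate or succinate for phosphate. In the glycerol course at pH 8.0 it had 111 and 121 RPKM at time zero, 46.5, 52.1, 52.6 and 52.8 at 15 min, 55.4 and 76.5 at 30 min, and 123 and 137 at 60 min. At pH 8.2 it had 103 RPKM in both time zero libraries, 42.0 and 32.5 at 15 min, 47.9 and 36.3 at 30 min, and 109 and 95.9 at 60 min. The glucose course had 116 and 108 RPKM at time zero, 50.1 and 51.4 at 15 min, 62.3 and 59.3 at 30 min, and 116 and 112 at 60 min. The 3 courses began within 103 to 121 RPKM and stood at 95.9 to 137 RPKM at 60 min. On glycerol at pH 8.0 both 60 min libraries were above the starting range. Changes at 60 min were 0.16 on glycerol at pH 8.0, -0.01 at pH 8.2 and 0.03 on glucose. This gene lay farthest inside the thresholds of the rule, by 0.33.

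*DAL5* (C4QWN9) is described as an allantoin permease. In *S. cerevisiae* Dal5 takes up allantoate, a nitrogen source used when better ones are scarce. This gene had, on glycerol at pH 8.0, 40.4 and 47.2 RPKM at time zero, 20.5, 20.6, 19.5 and 23.9 at 15 min, 25.7 and 29 at 30 min, and 44.6 and 45.9 at 60 min. At pH 8.2 it had 36.2 and 35.4 RPKM at time zero, 17.8 and 14.6 at 15 min, 20.5 and 18.5 at 30 min, and 40.5 and 42.3 at 60 min. In cells on glucose it had 47.8 and 43.7 RPKM at time zero, 19.3 and 22.5 at 15 min, 24.4 and 25.8 at 30 min, and 38.8 and 36.3 at 60 min. On glucose both libraries at 60 min were still below both of time zero, with a change of -0.28, whereas at pH 8.2 both were above, with a change of 0.2.

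*YCR023C* (C4R4W4) encodes a vacuolar membrane protein of unknown function. Its levels on glycerol at pH 8.0 were 24.9 and 26.5 RPKM at time zero, 14.5, 14.3, 12 and 12.6 at 15 min, 18 and 22.7 at 30 min, and 32.9 and 38.2 at 60 min. At pH 8.2 they were 24.5 and 29.3 RPKM at time zero, 13.7 and 7.73 at 15 min, 15.5 and 11.4 at 30 min, and 33.7 and 36.3 at 60 min. On glucose they were 36.5 and 34.6 RPKM at time zero, 16.2 and 15.2 at 15 min, 25.5 and 23.8 at 30 min, and 42.4 and 37.1 at 60 min. It was the single gene of the 8 whose libraries at 60 min all lay above those of time zero in every course, with changes of 0.45, 0.37 and 0.15. Of all genes, 44.8% lay above on glycerol at pH 8.0, 50.3% at pH 8.2 and 50.2% on glucose. The share that did so in every course was not counted.

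*PDE1* encodes the low-affinity cyclic AMP phosphodiesterase, which breaks down the second messenger that activates protein kinase A. Its message had, on glycerol at pH 8.0, 10.5 and 12.5 RPKM at time zero, 4.83, 4.88, 4.08 and 6.84 at 15 min, 9.29 and 9.46 at 30 min, and 12.1 and 14.9 at 60 min. At pH 8.2 there were 10.1 and 11.4 RPKM at time zero, 5.57 and 4.28 at 15 min, 7.90 and 7.21 at 30 min, and 13.2 and 14 at 60 min. Glucose cells had 14.5 and 11.6 RPKM at time zero, 7.13 and 6.66 at 15 min, 8.94 and 7.82 at 30 min, and 11.4 and 13.5 at 60 min. Its level was the lowest of the 8 and rested on 80 to 309 reads a library. It regained the most by 30 min on glycerol at pH 8.0, when 25.5% of its change at 15 min was left.

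C4QXC6 and C4QW48 are described as hypothetical proteins. PAS_chr1-1_0449 had no description here, since descriptions were given only for genes that the study selected and it was not among them. C4QXC6 on glycerol at pH 8.2 had 69.8 and 63.7 RPKM at time zero, 27.2 and 9.70 at 15 min, 29.5 and 12.1 at 30 min, and 62.1 and 58.2 at 60 min. Replicate 2 of this course was low at both 15 and 30 min. C4QXC6 had 45.9 and 41.8 RPKM at time zero, 20.1, 24.2, 14.3 and 20.4 at 15 min, 16.9 and 20.4 at 30 min, and 37.5 and 49.9 at 60 min on glycerol at pH 8.0. On glucose it had 72 and 67.6 RPKM at time zero, 31.5 and 28.7 at 15 min, 34.7 and 34.8 at 30 min, and 85.2 and 65.5 at 60 min.

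C4QW48 had, on glycerol, the largest share of its 15 min change left at 30 min among the 8, 122% at pH 8.0 and 117% at pH 8.2. At pH 8.0 it had 48.6 and 44.8 RPKM at time zero, 22.5, 27.0, 24.2 and 22.3 at 15 min, 20.2 and 21 at 30 min, and 61.1 and 60.0 at 60 min. At pH 8.2 it had 39.2 and 40.7 RPKM at time zero, 23.8 and 19.8 at 15 min, 19.9 and 19.4 at 30 min, and 42.3 and 25.3 at 60 min. The glucose libraries had 64.8 and 59.3 RPKM at time zero, 25.3 and 23 at 15 min, 32.2 and 34.5 at 30 min, and 63.8 and 58.0 at 60 min. Its lowest mean was thus at 30 min in both glycerol courses and at 15 min on glucose. The 15 and 30 min levels were not tested against each other, and at pH 8.2 their libraries overlapped. The 2 libraries at pH 8.2 for 60 min disagreed, one at the level of time zero and one far below it. Without replicate 1 of glycerol at pH 8.2 for 60 min the rule found 5 of the 8 and lost C4QW48, PAS_chr1-1_0449 and *HSP78*.

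PAS_chr1-1_0449, the highest of the 8, had 232 and 212 RPKM at time zero, 105, 96.6, 105 and 92.5 at 15 min, 116 and 113 at 30 min, and 226 and 218 at 60 min on glycerol at pH 8.0. At pH 8.2 it had 187 and 194 RPKM at time zero, 102 and 110 at 15 min, 99.3 and 128 at 30 min, and 243 and 273 at 60 min. In glucose cells it had 249 and 255 RPKM at time zero, 144 and 123 at 15 min, 164 and 136 at 30 min, and 238 and 209 at 60 min. At 60 min both pH 8.2 libraries stood above time zero and both glucose libraries below it, with changes of 0.44 and -0.18.

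**Figure D2:**
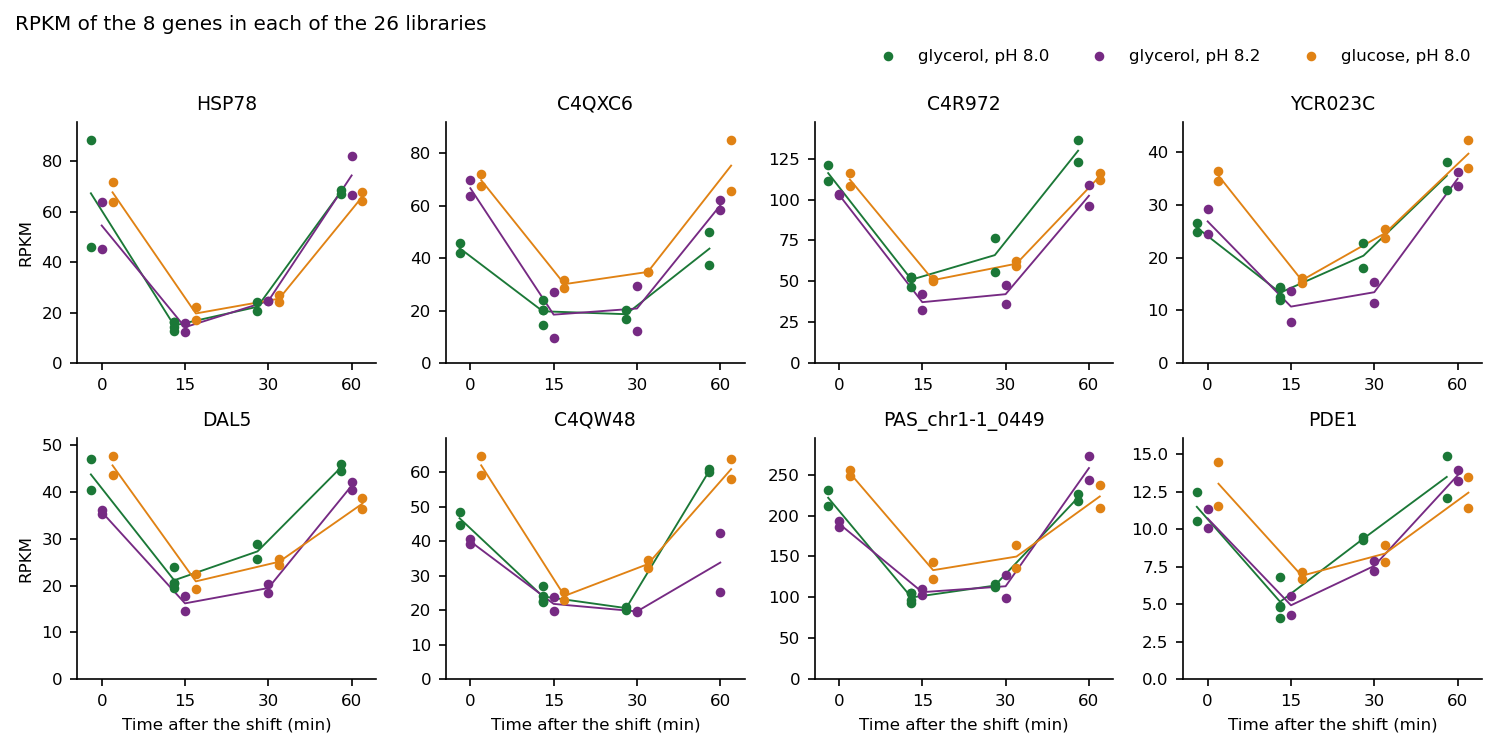
RPKM of the 8 genes (vertical axis, from 0) against minutes after the shift (horizontal axis, not to scale), with a point for each of the 26 libraries and lines through the group means of each course. In every panel the points at 15 and 30 min lie below those of time zero of the same course, and those at 60 min are near them, with *HSP78* on glycerol at pH 8.0 showing the widest gap between time zero libraries.

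Since the rule used 15 and 60 min, the counts at those times are given as a description. At 15 min all 8 genes were below time zero at an adjusted p below 0.05 (limma, moderated linear model, Benjamini-Hochberg over 5034 genes) in each course, where 27.2% of all genes tested were lower on glycerol at pH 8.0, 26.2% at pH 8.2 and 20.4% on glucose. At 60 min the same test called *YCR023C* higher on glycerol at pH 8.0, PAS_chr1-1_0449 higher at pH 8.2 and no gene of the 8 on glucose, where 46.3%, 57.8% and 34.5% of all genes were called in either direction. At 60 min all genes together had shifted up slightly, with a median change of 0.07 on glycerol at pH 8.0, 0.13 at pH 8.2 and 0.1 on glucose, and rescaling by median ratios took these to 0.0, 0.01 and 0.01. The median change of the 8 genes at 60 min was 0.12, 0.26 and -0.03 as deposited and 0.05, 0.14 and -0.12 after rescaling, so that the sign on glucose was negative on both scales.

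The changes at 30 min, which the rule did not use, showed whether the loss lasted. At 30 min all 8 genes were still below time zero on glycerol at pH 8.2 and on glucose, and 6 of the 8 on glycerol at pH 8.0. In the same test (limma, adjusted p below 0.05) 12.3% of all genes tested were lower on glycerol at pH 8.0, 15.9% at pH 8.2 and 14.6% on glucose. These changes share their time zero libraries with the rule, which can favour genes with high time zero values, so they are not independent of it. The median change of all genes at 30 min was 0.06, 0.05 and 0.03 in the same order of courses. On glycerol at pH 8.0, 621 genes were lower and 1094 higher as deposited, against 888 lower and 868 higher after rescaling by median ratios, and the count for the 8 genes was the same on both scales.

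*HSP78* showed the largest fall at 30 min on glycerol at pH 8.0, -1.48 (SE 0.22, limma adjusted p = 2.42e-05), and on glucose, -1.37 (SE 0.22, limma adjusted p = 6.43e-05). At pH 8.2 it fell by 1.1 (SE 0.22, limma adjusted p = 5.16e-04). Without replicate 2 of time zero, the library at 88.4 RPKM, the change on glycerol at pH 8.0 was -1.02. C4R972 changed by -1.28 at pH 8.2 (SE 0.14, limma adjusted p = 4.83e-07), by -0.82 on glycerol at pH 8.0 and by -0.87 on glucose (limma adjusted p = 1.07e-04 and 6.11e-05). *DAL5* changed by -0.66 on glycerol at pH 8.0, -0.85 at pH 8.2 and -0.84 on glucose, with limma adjusted p = 9.01e-05, 4.52e-06 and 6.39e-06. All these calls held with each library of the 2 groups compared left out in turn.

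C4QW48 changed by -1.14, -0.99 and -0.87 at 30 min in the courses on glycerol at pH 8.0, glycerol at pH 8.2 and glucose (limma adjusted p = 7.00e-06, 3.21e-05 and 1.51e-04). PAS_chr1-1_0449 changed by -0.95, -0.75 and -0.75 in the same courses (limma adjusted p = 2.16e-06, 3.11e-05 and 3.77e-05). Both genes kept these calls with any library left out. *PDE1* and *YCR023C*, in contrast, were not below time zero by this test on glycerol at pH 8.0, with changes of -0.26 (95% interval -0.62 to 0.09, limma adjusted p = 0.247) and -0.33 (95% interval -0.71 to 0.05, limma adjusted p = 0.168), although both 30 min libraries of each lay below both of time zero.

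The calls of 3 genes rested on single libraries. *PDE1* fell by 0.45 at pH 8.2 (limma adjusted p = 0.0405) and lost the call without any one of the 4 libraries compared (adjusted p = 0.0664 to 0.205). On glucose it fell by 0.58 (limma adjusted p = 0.0131) and lost the call without replicate 1 of time zero (adjusted p = 0.14) or replicate 2 of 30 min (adjusted p = 0.108). *YCR023C* fell by 0.96 at pH 8.2 (limma adjusted p = 3.00e-04), a call that held without any library. On glucose it fell by 0.51 (limma adjusted p = 0.035) and lost the call without any one of the 4 libraries (adjusted p = 0.0873 to 0.157). C4QXC6 changed by -1.2, -1.76 and -0.98 on glycerol at pH 8.0, glycerol at pH 8.2 and glucose (SE 0.35 each, limma adjusted p = 0.011, 4.56e-04 and 0.0343). Its call on glucose was lost without any one of the 4 libraries (adjusted p = 0.102 to 0.124), its call on glycerol at pH 8.0 without replicate 1 of time zero or of 30 min (adjusted p = 0.065 and 0.0667), and at pH 8.2 its change was -1.15 without replicate 2 of 30 min. For glucose, 5 of the 8 genes were called without replicate 1 of time zero, and 5 without replicate 2 of 30 min.

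**Figure D3:**
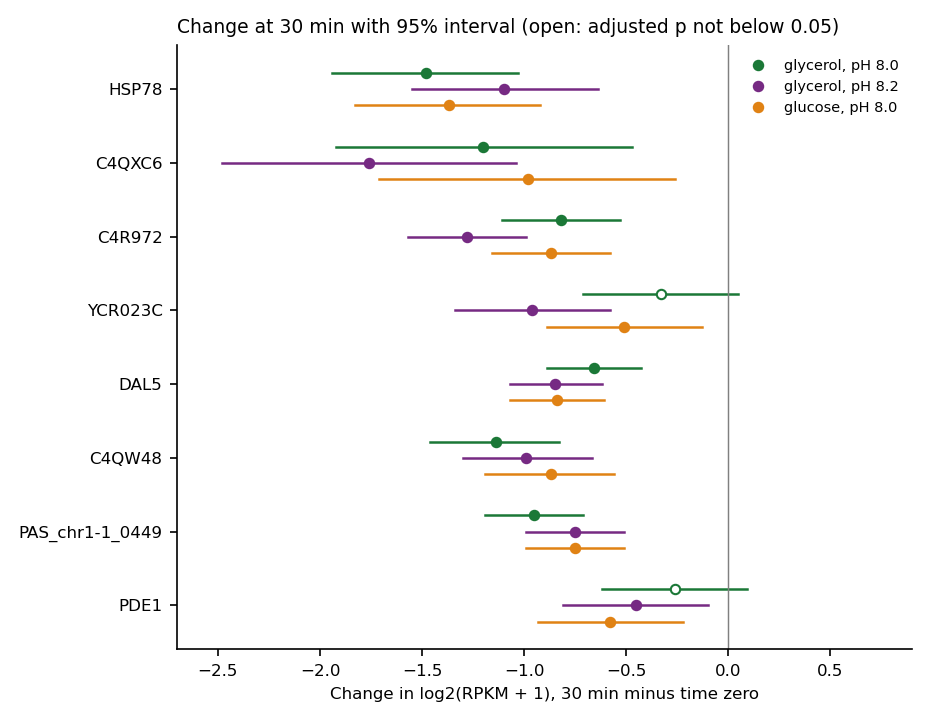
Change in log2(RPKM + 1) at 30 min against time zero of the same course (horizontal axis) for each of the 8 genes, with 95% intervals from limma and 1 colour per course. All 24 estimates are below 0, and the 2 open circles, *PDE1* and *YCR023C* on glycerol at pH 8.0, have intervals that reach across 0.

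In every course all 8 genes had both 30 min libraries below both libraries of time zero, where 24.8% of all genes did so on glycerol at pH 8.0, 30.0% at pH 8.2 and 31.9% on glucose. The same held for all 8 at 15 min, where the shares of all genes were 38.0%, 45.2% and 41.1%. At 60 min, 3 of the 8 were wholly above time zero and none below on glycerol at pH 8.0 (all genes, 44.8% above and 29.1% below), 5 above and 1 below at pH 8.2 (50.3% and 29.2%), and 1 above and 2 below on glucose (50.2% and 23.9%). Of the 24 pairs of gene and course, 21 were lowest at 15 min and 3 at 30 min, those of C4QW48 in both glycerol courses and C4QXC6 on glycerol at pH 8.0. At 30 min a median of 76.7% of the change at 15 min was left, from 25.5% for *PDE1* to 122% for C4QW48, both on glycerol at pH 8.0. The difference between 60 and 30 min was above 0 in all 24 pairs, at 0.47 to 1.61 with a median of 0.96, and that between 30 and 15 min was -0.21 to 0.77 with a median of 0.26. In most pairs the larger part of the return thus took place after 30 min, over a step of 30 min against one of 15 min. *PDE1* on glycerol at pH 8.0 went the other way, with 0.77 before 30 min and 0.47 after. The rule set this timing only at its ends.

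Whether the 30 min changes differed between the courses was tested as a difference of differences. For pH 8.2 against pH 8.0 on glycerol none of the 8 genes passed (limma, adjusted p below 0.05), as did none of the 5034 genes (0.0%). At an unadjusted p below 0.05, 2 of the 8 and 371 of all genes were found. These were *YCR023C*, whose change was more negative at pH 8.2 by -0.63 (95% interval -1.16 to -0.09, limma adjusted p = 0.617), and C4R972, by -0.46 (95% interval -0.87 to -0.05, limma adjusted p = 0.62). The interval for *HSP78* ran from -0.26 to 1.03 and that for C4QXC6 from -1.58 to 0.46, so differences of a log2 unit could not be told from 0 for these 2 genes. This result depended on the baseline. With the mean of the 4 glycerol time zero libraries as the baseline of both courses, time zero cancels and the 30 min groups are compared directly, and 3 of the 8 genes passed: *DAL5* at -0.47, *YCR023C* at -0.57 and C4R972 at -0.63 (limma adjusted p = 0.00755, 0.0337 and 0.00529), as did 455 lower and 476 higher genes of all. C4QW48 (-0.07), PAS_chr1-1_0449 (-0.02) and C4QXC6 (0.03) then had the opposite sign, without passing. Since time zero cancels, any difference between the courses before the stress stays in this contrast. Mean levels at time zero of the pH 8.0 and pH 8.2 courses were 43.8 and 35.8 RPKM for *DAL5*. They were 116 and 103 RPKM for C4R972, and 25.7 and 26.9 RPKM for *YCR023C*. The part of such differences in the 3 calls was not tested. At pH 8.2 replicate 2 was below replicate 1 for 7 of the 8 genes at 15 min and 6 of 8 at 30 min, where 64.3% and 42.8% of all genes were. Its part in the differences was not tested.

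For glucose against glycerol at pH 8.0 none of the 8 genes passed at 30 min (limma, adjusted p below 0.05), where 1.29% of all genes did, and none reached an unadjusted p below 0.05, where 610 of all genes did. The largest differences were -0.31 for *PDE1* (95% interval -0.81 to 0.19) and 0.27 for C4QW48 (95% interval -0.18 to 0.71). For C4R972 the difference was -0.05 with an interval of -0.46 to 0.36. The 2 comparisons share the pH 8.0 glycerol libraries.

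Before the stress, 2 of the 8 genes were higher in glucose than in glycerol, where glucose cells at time zero were set against the mean of the glycerol groups. In this test (limma, adjusted p below 0.05) 9.44% of all genes were higher. The rule used these time zero libraries as the baseline of each course but did not compare their levels between carbon sources, so the comparison was not part of the rule and yet is not independent of it. C4QW48 had 64.8 and 59.3 RPKM in glucose, against 48.6 and 44.8 RPKM and 39.2 and 40.7 RPKM in the 2 glycerol groups, a difference of 0.51 (95% interval 0.24 to 0.78, limma adjusted p = 0.00881). PAS_chr1-1_0449 had 249 and 255 RPKM in glucose, against 232 and 212 RPKM and 187 and 194 RPKM in the glycerol groups, a difference of 0.3 (95% interval 0.09 to 0.5, limma adjusted p = 0.0382). For both genes the glucose libraries were above all 4 glycerol libraries, and the share of all genes that did so was not counted. The call of C4QW48 was lost without either glucose library (adjusted p = 0.086 without replicate 1 and 0.0529 without replicate 2), and that of PAS_chr1-1_0449 without any library other than replicate 1 of time zero of the pH 8.0 glycerol course (adjusted p = 0.06 to 0.221).

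The other 6 genes did not pass this test at time zero. The difference, glucose minus glycerol, was 0.42 for *YCR023C* (limma adjusted p = 0.0577), 0.36 for C4QXC6, 0.21 for *PDE1*, 0.2 for *DAL5* and *HSP78*, and 0.04 for C4R972, and adjusted p reached 0.857. C4QXC6 had 72 and 67.6 RPKM in glucose, close to the 69.8 and 63.7 RPKM at time zero of the pH 8.2 glycerol course, whereas time zero of the pH 8.0 glycerol course had 45.9 and 41.8 RPKM. The spread between these 2 glycerol groups, which had the same treatment, is not part of the error of the comparison, which comes from the spread within groups. In C4R972 the interval of the difference, -0.21 to 0.29, left room for no more than 0.29 in size.

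**Figure D4:**
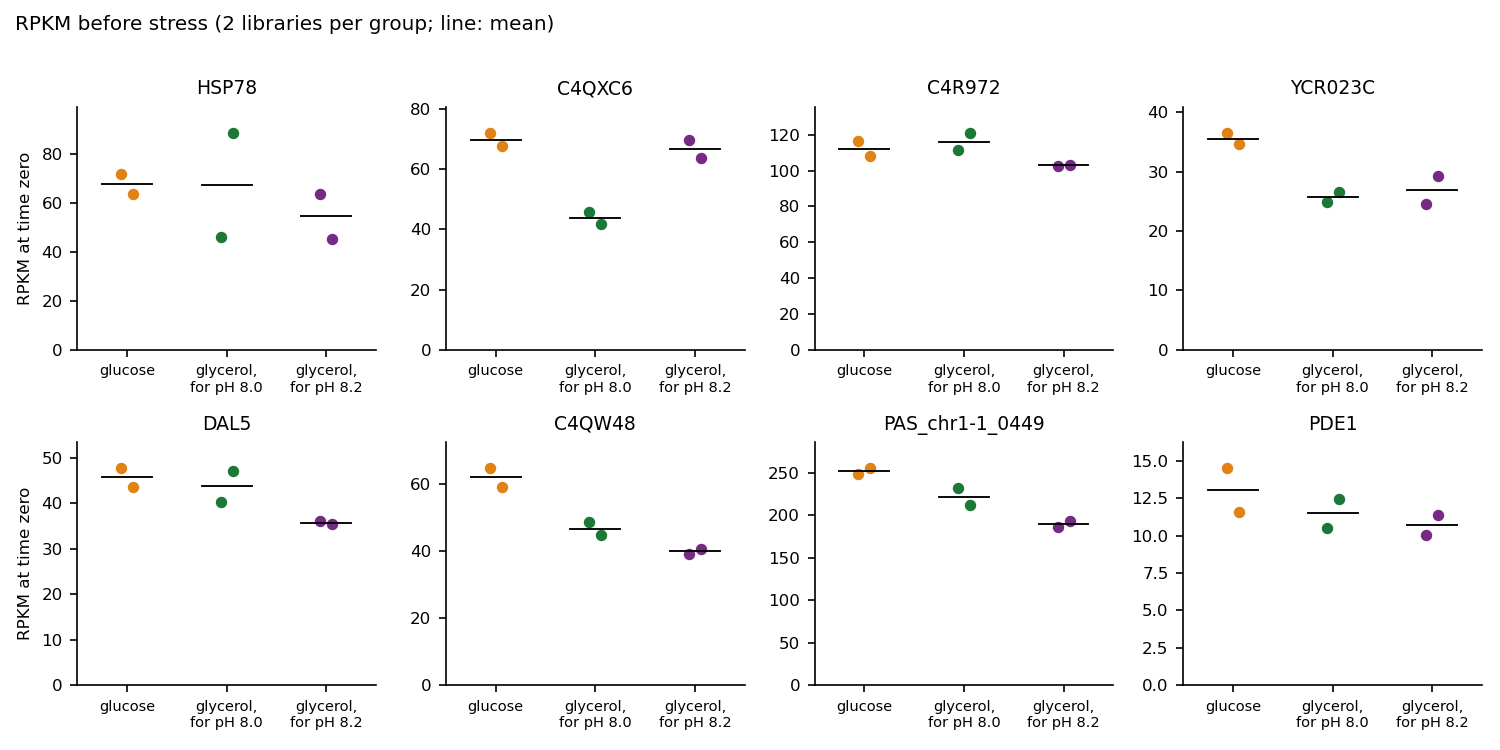
RPKM at time zero (vertical axis, from 0) of the 8 genes in glucose and in the glycerol groups of the pH 8.0 and pH 8.2 courses, with a point per library and a line at the mean of 2. Glucose libraries lie above all glycerol libraries for C4QW48, PAS_chr1-1_0449 and *YCR023C*, and the share of all genes that do so was not counted. Time zero libraries of *HSP78* on glycerol for pH 8.0 stand far apart, at 46.1 and 88.4 RPKM.

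*HSP78* was the only one of the 8 on the keyword list of protein folding, which held 20 genes. The list was matched by keyword or gene name and is not purely of folding genes. It took in *HSP12*, the vacuolar transporter chaperone C4R7F2 and, by name, *HSP10* and *HSP150*, both described as hypothetical. On glycerol at pH 8.0 C4R7F2 changed by 1.7 at 15 min and 2.0 at 60 min, and *HSP150* by -0.65 and -0.9. Descriptions were given only for genes that the study selected on these samples (15.3% of all genes), so the counts of this and the next lists are not independent evidence of a direction. At 15 min 15 of the 20 were lower and 4 higher in each course, at 30 min 13 and 4, and at 60 min 1 was lower and 14 were higher in both glycerol courses, against 2 lower and 12 higher in the glucose course. The median change of the list was -1.51, -0.8 and 0.67 at 15, 30 and 60 min in the glycerol course at pH 8.0. In the glycerol course at pH 8.2 it was -1.35, -0.8 and 0.92, and in the glucose course -1.12, -0.93 and 0.58. Of the 20, 13 fell by at least 0.8 at 15 min in all courses, *HSP78* included, and at 60 min 8 of these were above 0.5 in all courses and 1, *HSP78*, was within the window in all courses.

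*HSP104*, of the same family as *HSP78*, encodes a protein that dissolves aggregates in the cytosol of *S. cerevisiae*. It changed by -3.48, -2.48 and -0.33 at 15, 30 and 60 min on glycerol at pH 8.0, by -3.69, -2.56 and -0.16 at pH 8.2, and on glucose by -3.77, -2.82 and -0.91. At 60 min it was thus within the window of the rule in both glycerol courses and below it on glucose. Genes of other chaperone families are given beside it. *SSA4*, an Hsp70, changed by -4.13, -2.78 and 0.52 on glycerol at pH 8.0 and by -3.78, -2.23 and 1.44 at pH 8.2. *HSP82*, the Hsp90 chaperone, changed by -2.13, -1.17 and 0.7 on glycerol at pH 8.0, and *KAR2*, the Hsp70 of the endoplasmic reticulum, by -1.44, -0.06 and 1.21. Beside these *HSP78* changed by -2.04, -1.48 and 0.08 on glycerol at pH 8.0 and by -1.86, -1.1 and 0.45 at pH 8.2. *HSP12*, a membrane-protecting stress protein and no chaperone of these families, had 4.42, 4.67 and 3.25 on glycerol at pH 8.0. Differences between these genes were not tested.

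*DAL5* was the only one of the 8 on the list of amino acid and nitrogen permeases, which held 16 genes. At 15 min 12 were lower and 4 higher on glycerol at pH 8.0, and in each of the other courses 11 were lower and 2 higher. At 60 min the counts were 8 and 4, 6 and 6, and 8 and 4, with medians of -0.31, 0.07 and -0.35, beside 0.05, 0.2 and -0.28 for *DAL5*. The ammonium permease *MEP1* changed by -3.46 at 15 min and -2.69 at 60 min on glycerol at pH 8.0, and the general amino acid permease *GAP1* by -1.18 and -1.24. Other genes of the list fell and came back in that course, namely *VBA1* (C4QVJ7) with -0.94 and 0.08, *DIP5* with -2.04 and 0.14, and *AGC1* with -1.22 and 0.08. On glucose *VBA1* changed by -0.62 at 15 min, and at 60 min *DIP5* by -1.26 and *AGC1* by -0.36. The list also held *HRK1*, a protein kinase that stabilizes amino acid transporters. A second gene named *DAL5* (PAS_chr1-1_0354, C4QWV7) did not share the dip, with changes of 0.47, 0.29 and 1.04 at 15, 30 and 60 min on glycerol at pH 8.0. *DAL4*, also described as an allantoin permease, changed by -1.16, -1.02 and -0.74 there.

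C4R972 was on the list of mitochondrial carriers and import, which held 5 genes. On glycerol at pH 8.0, 2 were lower and 2 higher at 15 min and 0 lower and 3 higher at 60 min, and on glucose 3 were lower and 1 higher at 15 min and 2 and 2 at 60 min. Another carrier of the list, *AGC1* (C4R4J8), a mitochondrial amino acid transporter, had changes of -1.22, -0.68 and 0.08 at 15, 30 and 60 min on glycerol at pH 8.0, and -0.95, -0.62 and -0.36 on glucose. *PIC2*, the phosphate carrier, differed in sign between carbon sources at 15 min, with 0.26 on glycerol at pH 8.0 and -2.54 on glucose, a difference not tested here. C4QW48, C4QXC6 and *YCR023C* were on the list of 369 genes of no known function, of which 133 were lower and 136 higher at 15 min on glycerol at pH 8.0. None of the 8 was on the other 12 lists, which covered the Hsp70 and Hsp90 system, the proteasome, cell wall, lipids, aminoacyl-tRNA synthetases, ribosome biogenesis, ribosomal proteins, messenger RNA processing, cell cycle, gluconeogenesis, transcription regulators and protein kinases. These lists held from 1 gene (aminoacyl-tRNA synthetases) to 12 (transcription regulators), and PAS_chr1-1_0449, without a description, could be on none. The absence therefore says little about these functions.

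The rule cut through a continuum, and 22 genes failed exactly 1 of its thresholds. Just inside were *PDE1*, with a change of -0.82 on glucose at 15 min, PAS_chr1-1_0449, with -0.83 at pH 8.2 at 15 min, and *HSP78*, with 0.45 at pH 8.2 at 60 min. Just outside were *AGC1*, with -0.36 on glucose at 60 min, *GAL2* (C4QZI1), a putative hexose transporter, with -0.39 on glycerol at pH 8.0 at 60 min, and *HRP1* (C4QY74), a subunit of cleavage factor I, with -0.75 on glucose at 15 min. These distances were below the standard errors of the changes of the genes inside, and the set changed when single libraries were left out.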

How the data were processed

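The authors made non-directional poly-A libraries, mapped single reads with Bowtie2 (version not given in the sources used here) to the GS115 assembly and computed the deposited RPKM values with SeqMonk, 1 column per library. A second deposited table holds the authors' log2 fold changes and p-values for genes they selected, which were not used, and names and descriptions, which were. At least 99.94% of RPKM values were whole reads to within 0.01 read, and 16.31 to 20.35 M reads per library were recovered, of which 92.4 to 93.9% lay in genes.

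From RPKM, log2(RPKM + 1) was fitted with limma 3.58.1 (R 4.3.3), with 12 group means over 26 libraries (14 residual degrees of freedom), empirical Bayes with a trend, on the 5034 genes that reached 1 RPKM in 2 or more libraries. RPKM is not a count, so no count model was used. Benjamini-Hochberg adjustment ran over all genes of each comparison, and a gene was called at an adjusted p below 0.05. The fit, tested on simulated data, took libraries as independent. Since libraries of 1 course share cultures, p-values may be too small. The members, keyword lists and tests were chosen with earlier results of these data known. All 8 members were named, with every library's RPKM, as were the 3 genes nearest outside the rule; genes of the lists were picked after their values were seen. Alternatives were a pseudocount of 0.25, no filter, rescaling by median ratios, no trend, a replicate block, all 4 glycerol libraries of time zero as the baseline, and each library left out in turn. All 5040 gene models matched RefSeq ASM2700v1 in start and end.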

Additional observations from a re-analysis of the deposited data

Results flagged for a closer look

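For C4R972 on glycerol at pH 8.0 for 15 min, replicate 1, at 46.52 RPKM, stood apart below the other 3 libraries of its group, which had 52.1, 52.6 and 52.8 RPKM, by Dixon's test at the 95% level. The groups of 4 libraries, 1 for each of the 8 genes, were tested, and chance flags about 1 in 20 such groups. The level at time zero of this course was 111 and 121 RPKM, so this library does not change the direction of the fall.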

How the results depend on the processing

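The number of genes the rule found was 8 with a pseudocount of 0.25 and 9 when the baseline was the mean of the 4 glycerol time zero libraries (7 of the 8, without C4QW48). It was 4 after rescaling by median ratios, which lost C4QW48, *DAL5*, PAS_chr1-1_0449 and *PDE1*, and 5 to 11 with 1 library left out. The 30 min counts were 6, 8 and 8 under every alternative that kept all libraries, the replicate block included. With 1 library of the 2 groups compared left out they were 5 to 6, 7 and 5 to 6. The time zero count was 2 (0 to 2 with 1 library left out), and 3 after rescaling by median ratios, where *YCR023C* passed (0.46, limma adjusted p = 0.0302).

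With all 4 glycerol libraries as the baseline, the contrast of pH 8.2 with pH 8.0 at 30 min is a direct difference of the 2 stressed groups. Time zero cancels in it, and any difference the courses had at time zero stays in it. There 3 of the 8 genes passed (limma adjusted p = 0.00755 for *DAL5* at -0.47, 0.0337 for *YCR023C* at -0.57 and 0.00529 for C4R972 at -0.63), as did 455 lower and 476 higher genes of 5034, and C4QW48 (-0.07), PAS_chr1-1_0449 (-0.02) and C4QXC6 (0.03) changed sign without passing. In the difference of differences of the report, with each course's own time zero as baseline, leaving out 1 library took *HSP78* to between -0.08 and 0.85 (without replicate 2 and 1 of time zero at pH 8.0) and C4QXC6 to between -1.17 and 0.05 (without replicate 1 and 2 of 30 min at pH 8.2). For glucose against glycerol at 30 min, *HSP78* was -0.01 with all 4 baseline libraries and ran from -0.35 to 0.57 without replicate 2 or 1 of time zero on glycerol at pH 8.0, and C4R972 ran from -0.28 to 0.18 without replicate 1 or 2 of 30 min there. At time zero glucose minus glycerol ran from -0.03 to 0.43 for *HSP78* and from -0.02 to 0.09 for C4R972 with 1 library left out. None of these sign changes passed the test, and their cause was not tested.

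Whether replicate numbers pair the libraries was not settled. Deviations of same-numbered libraries had r of -0.037 to 0.701, and 12 of 18 pairs of groups were above 0.1. Among these were all 6 on glucose (0.111 to 0.351), but not every pair on glycerol, and the fit has no block. In the group of 4 libraries, the library codes of replicates 3 and 4, not those of 1 and 2, run on from the other times. The check used replicates 1 and 2, and r of that group with time zero, 30 and 60 min was -0.037, 0.0801 and 0.00765. Neither the check nor the block can decide pairing for that group. With the replicate block the counts of the 8 genes were 6, 8, 8, 2, 0 and 0 for the 6 tests, as without it. Over all genes the time zero split was 630 lower and 475 higher as deposited, against 508 and 578 after rescaling by median ratios. With 2 libraries in most groups, small differences between courses could not be resolved.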
